A study of Mus musculus with 2 samples.

Results

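The Myc family and the MAX network are described here through 9 of the 32285 genes measured in sorted mouse lung cells. The genes were taken by symbol: *Myc*, *Mycn*, *Mycl*, *Max*, *Mxd1*, *Mxd4*, *Mxi1*, *Mnt* and *Mga*. The group was chosen on earlier results of these same libraries, with the ratios of *Myc* and *Mxd4* in capillaries known, and the study's own gene lists, drawn in part from these cells, hold *Myc* among the response markers and *Mxd4* among the genes given as lower, so neither direction is independent evidence. All ratios below are therefore a description.

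Single-cell RNA sequencing was done on 2 libraries, 1 per group. Wild-type C57BL/6 mice were given either PBS (control) or 400000 B16-F10 cells in 100 µl by the tail vein (B16-F10), and lungs were taken 6 h later. The injected line, derived from a melanoma of C57BL/6 skin, carried a green tracker dye. The lung suspensions were sorted for Pecam1, a surface protein of endothelial cells (ECs), and against Ptprc, a surface protein of leukocytes, and dyed melanoma cells were collected from the injected lungs only. The labels give 2 mice per treatment, pooled in 1 library, so there is no replicate error, no test was possible, and every interval below is a 95% interval of counting error alone.

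MYC proteins are basic helix-loop-helix transcription factors that bind DNA as a pair with MAX, most strongly at the E-box CACGTG, and raise the transcription of genes for ribosome production, polyamine and nucleotide synthesis and cell growth. MXD1, MXI1, MXD4 and MNT also pair with MAX at E-boxes, recruit SIN3 and histone deacetylases, and repress. MGA is a large MAX partner in a Polycomb-related repressor complex. In most quiescent adult tissues MYC is low and MXD proteins are high, and *Myc* is an immediate-early gene of growth factor and cytokine stimulation with a short-lived mRNA.

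Members were located with GENCODE M21 on GRCm38, the mm10 build that the submitters' processing notes name. *Myc* lies at chr15:61985391-61990374 (plus strand), *Mycn* at chr12:12936093-12941914 (minus), *Mycl* at chr4:122995652-123002485 (plus) and *Max* at chr12:76937269-76962201 (minus). *Mxd1* lies at chr6:86647042-86669161 (minus), *Mxd4* at chr5:34173883-34187720 (minus), *Mxi1* at chr19:53310518-53375810 (plus), *Mnt* at chr11:74830920-74845725 (plus) and *Mga* at chr2:119897228-119969581 (plus). All are protein-coding. *Max* and *Mxd1* are overlapped by unconfirmed models on their own strand, and *Mxd4* and *Mxi1* by models on the other strand, and how such reads were assigned is not given in the sources used here. No gene overlaps the other members.

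Promoter windows from RefSeq on GRCm38.p6 (250 bases before to 50 after the start site) were found for 8 members, all but *Myc*. The E-box CACGTG, which reads the same on both strands, occurred in the windows of 3 of these 8 (*Max*, *Mxd4* and *Mnt*), beside 2187 of 27025 genes with a window (8.09%) and 2349 of 32851 windows (7.15%). Because MAX, its repressor partners and MYC can all bind this motif, the 3 member sites are shown with the E-box in capitals and up to 12 bases on either side, 5′ to 3′ on the strand of the gene. A match is a description of the sequence and not evidence of binding. They are followed by 4 sites of MYC-induced genes, which are named again with their lists. *Nme1*, *Ldha* and *Cdk4* have further sites that are not shown.
Max, chr12:76962234-76962263 (minus strand): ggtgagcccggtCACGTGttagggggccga
Mxd4, chr5:34187912-34187941 (minus strand): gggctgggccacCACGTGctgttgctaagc
Mnt, chr11:74830789-74830818 (plus strand): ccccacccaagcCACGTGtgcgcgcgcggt
Grwd1, chr7:45830740-45830767 (minus strand): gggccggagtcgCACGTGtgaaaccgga
Nme1, chr11:93968273-93968302 (minus strand): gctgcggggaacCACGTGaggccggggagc
Ldha, chr7:46845744-46845773 (plus strand): cggcccagcctaCACGTGggttcccgcacg
Cdk4, chr10:127063512-127063541 (plus strand): aagggtgaagatCACGTGtccagaacgtcc

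After the limits of the study (1000 to 5000 genes and under 20% mitochondrial unique molecular identifiers, UMIs, per cell) and removal of called doublets, 7830 control and 7767 B16-F10 cells remained, with a median of 7500 and 8544 UMIs. The libraries had 18 cell barcodes in common (0.230% and 0.232% of cells). Cells were placed in 28 clusters without using the 9 members, and classes were named from fixed markers. General capillary (gCap)-like ECs numbered 4729 in control and 4445 in B16-F10, aerocyte capillary (aCap)-like ECs 1454 and 967, artery-like 184 and 136, vein-like 293 and 286, and lymphatic (LEC)-like 57 and 51. Another 298 and 453 ECs met no vessel class. Clusters with endothelial markers and those of another cell type held 676 control and 996 B16-F10 cells. These mixed clusters were left out of the vessel classes. All 8 pan-endothelial markers were in over 82% of gCap-like cells of each library. Levels are given as counts per 1000000 UMIs of a class (CPM). The 8 macrophage/monocyte markers summed to 17.3 CPM in control, with 1 of them at 0, and to 29.8 CPM in B16-F10. The 8 melanoma markers summed to 26.5 CPM, with 3 of them at 0, and to 53.0 CPM, and the 8 mural markers to 36.3 and 58.3 CPM. The 5 erythroid markers summed to 1209 and 1473 CPM. The part of these cells and of their RNA in the results was not tested.

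*Myc* was the member with the largest difference between the libraries. In gCap-like ECs it was at 0.509 CPM in control (0.302 to 0.805, 18 UMIs) and 14.9 CPM in B16-F10 (13.8 to 16.2, 584 UMIs). The log2 ratio, B16-F10 over control, was 4.87 (4.20 to 5.64), a 29.3-fold difference, and ranked 12 among the 13231 genes that had 50 or more UMIs in the 2 libraries together. *Mycn*, the paralog best known from embryonic and neural tissue, did not differ beyond counting error, with 4.92 CPM (174 UMIs) in control and 4.78 CPM (187 UMIs) in B16-F10 and a log2 ratio of -0.041 (-0.35 to 0.27). *Mycl*, the other MYC paralog, had no UMI in the gCap-like ECs of control, 1 in those of B16-F10 and 0 in the other 4 vessel classes, so no ratio is given. At this depth the interval of 0 UMIs reaches 0.104 CPM in control gCap-like ECs.

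*Max*, the shared partner, did not differ beyond counting error. It was at 42.8 CPM (40.6 to 45.0, 1512 UMIs) in control and 44.1 CPM (42.1 to 46.3, 1725 UMIs) in B16-F10 gCap-like ECs, with a log2 ratio of 0.045 (-0.055 to 0.15).

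The MAX-binding repressors were lower in the B16-F10 library. *Mxd4* was at 455 CPM (448 to 462, 16092 UMIs) in control and 263 CPM (258 to 268, 10287 UMIs) in B16-F10 gCap-like ECs, a log2 ratio of -0.79 (-0.83 to -0.75). *Mxi1* was at 37.0 CPM (1308 UMIs) and 19.8 CPM (772 UMIs), a log2 ratio of -0.91 (-1.04 to -0.78). *Mxd1* was at 15.7 CPM (555 UMIs) and 9.77 CPM (382 UMIs), a log2 ratio of -0.68 (-0.88 to -0.49).
*Mnt*, which is expressed in cycling and resting cells alike, was at 17.7 CPM (625 UMIs) and 10.9 CPM (426 UMIs), a log2 ratio of -0.70 (-0.88 to -0.52). For these 4 genes the counting intervals of the libraries did not overlap. *Mga* differed less in gCap-like ECs, with 99.7 CPM (3525 UMIs) and 88.4 CPM (3454 UMIs) and a log2 ratio of -0.17 (-0.24 to -0.11).

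Of the 8 members measured in gCap-like ECs (50 or more UMIs in both libraries together), 1 was at least 1.5-fold higher in B16-F10 and 4 at least 1.5-fold lower. Over all 13231 genes measured, 7.85% were that much higher and 9.34% that much lower. The median log2 ratio of the 8 members was -0.43, beside -0.039 over all genes measured.

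**Figure D1:**
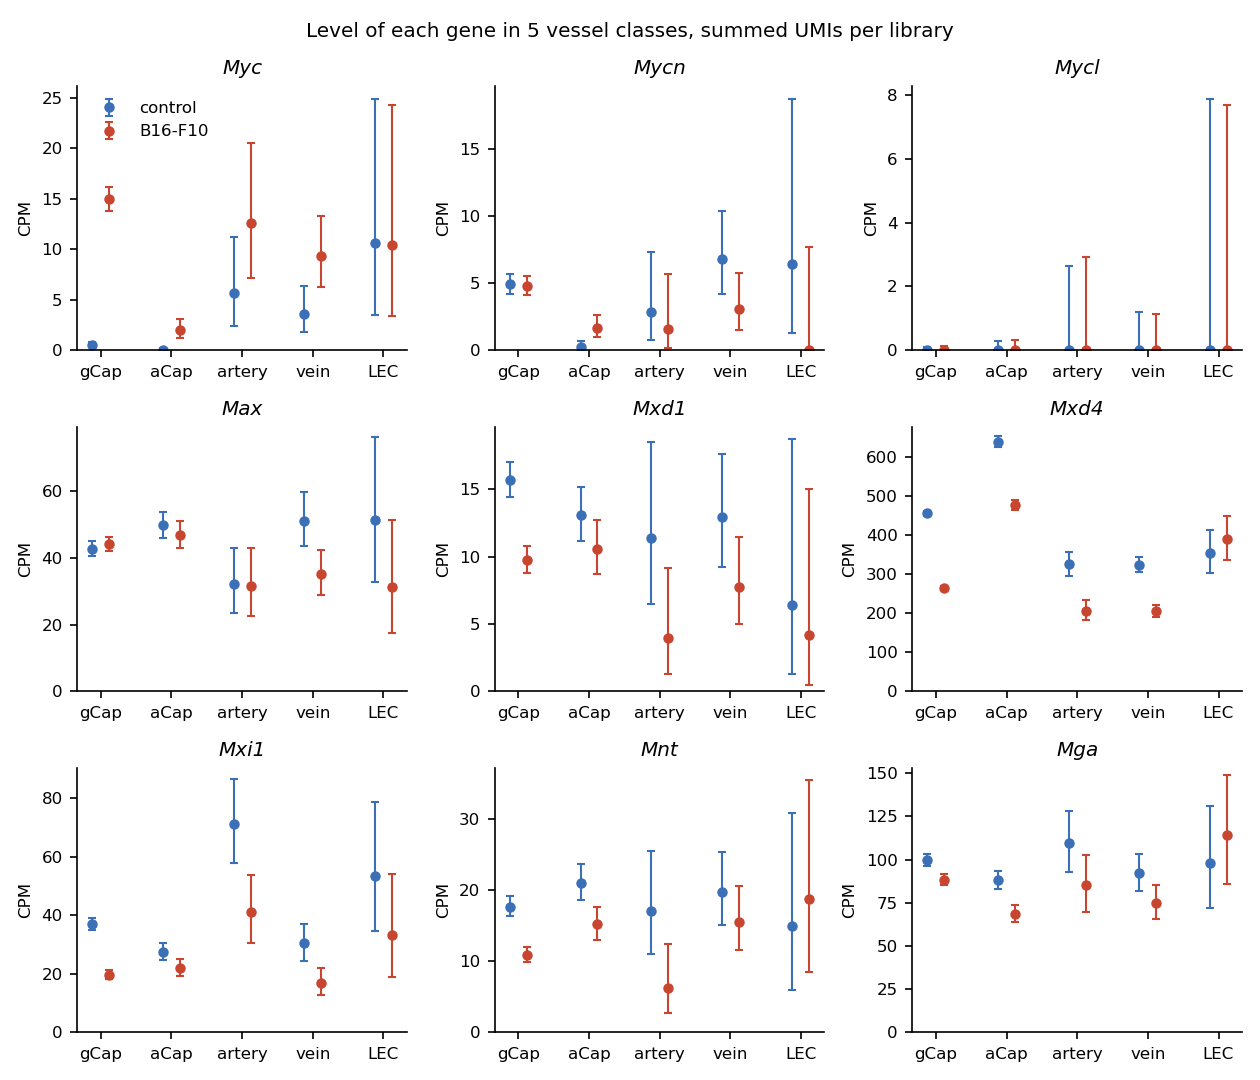
Level of each of the 9 genes (CPM, linear axis from 0, a different scale in each panel) in 5 vessel classes, for the control (blue) and B16-F10 (red) libraries; points are UMIs summed over the cells of a class and bars are 95% Poisson intervals of counting error. In gCap-like ECs *Myc* stands at 14.9 CPM in B16-F10 against 0.509 CPM in control, while *Mxd4*, *Mxi1*, *Mxd1* and *Mnt* lie lower in B16-F10 with bars that do not overlap.

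The order of *Myc* across vessel classes differed between the libraries. In control the highest level was in LEC-like ECs (10.7 CPM, 5 UMIs), then artery-like (5.69 CPM, 8 UMIs), vein-like (3.56 CPM, 11 UMIs) and gCap-like ECs. The aCap-like ECs of control had 0 UMIs, with an interval up to 0.280 CPM. The intervals of LEC-, artery- and vein-like ECs overlapped, and those of vein- and gCap-like ECs did not. In B16-F10 gCap-like ECs came first, followed by artery-like (12.6 CPM, 16 UMIs), LEC-like (10.4 CPM, 5 UMIs), vein-like (9.34 CPM, 30 UMIs) and aCap-like ECs (2.02 CPM, 22 UMIs). Neighbours in that order overlapped except aCap-like ECs, whose interval (1.27 to 3.06 CPM) lay below that of the vein-like ECs (6.30 to 13.3 CPM).

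In the other 4 vessel classes *Myc* had under 50 UMIs. In aCap-like ECs its log2 ratio was 3.15 with the control sum of 0 set to 3 counts, and the counting interval of the ratio began at 2.73. Over the processing alternatives the value against 3 counts lay between 2.47 and 3.50, and in cells thinned to 2000 UMIs 0 of 1437 control and 1 of 962 B16-F10 aCap-like cells had a *Myc* UMI, a difference that was not detectable. In vein-like ECs the log2 ratio was 1.39 (0.36 to 2.54), and the interval included 0 under 3 of 11 alternatives, as with at least 1500 genes per cell (0.77, -0.14 to 1.72). In artery-like ECs it was 1.15 (-0.16 to 2.58), and the interval lay above 0 under 5 of 11 alternatives, as with called doublets kept (2.14, 0.97 to 3.49). In LEC-like ECs it was -0.040 (-2.16 to 2.08), and a difference was not detectable at this depth. *Mycn* was also higher in B16-F10 in aCap-like ECs, from 3 to 18 UMIs, a log2 ratio of 2.86 with a wide interval (1.08 to 5.27).

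*Mxd4* was lower in B16-F10 in 4 of the 5 classes. In aCap-like ECs it was at 639 CPM (8409 UMIs) in control and 477 CPM (5185 UMIs) in B16-F10, a log2 ratio of -0.42 (-0.47 to -0.37). In artery-like ECs it was at 325 CPM (457 UMIs) and 207 CPM (262 UMIs), a log2 ratio of -0.66 (-0.88 to -0.43), and in vein-like ECs at 324 CPM (1003 UMIs) and 205 CPM (658 UMIs), a log2 ratio of -0.66 (-0.81 to -0.52). In LEC-like ECs it was at 355 CPM (166 UMIs) and 389 CPM (187 UMIs), a log2 ratio of 0.13 (-0.18 to 0.44). The aCap-like class was highest in *Mxd4* in both libraries, and the intervals of artery- and vein-like ECs overlapped in both.

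*Mxi1* was below control in all 5 classes, with an interval that left out 0 in 4 of them. Its log2 ratio was -0.32 (-0.56 to -0.080) in aCap-like ECs, -0.80 (-1.31 to -0.30) in artery-like ECs (71.2 and 41.0 CPM) and -0.85 (-1.36 to -0.36) in vein-like ECs (30.4 and 16.8 CPM). In LEC-like ECs it rested on 25 and 16 UMIs. *Mnt* was lower in aCap-like ECs (277 and 165 UMIs, log2 ratio -0.47, -0.76 to -0.19). *Max* was lower in vein-like ECs (51.1 and 35.2 CPM, log2 ratio -0.54, -0.90 to -0.18) but not in aCap-like ECs (-0.088, -0.26 to 0.081). The log2 ratio of *Mga* was -0.36 (-0.49 to -0.22) in aCap-like ECs, a larger fall than that of *Mxi1* there. It was -0.36 (-0.73 to -5.3e-05) in artery-like ECs, -0.30 (-0.55 to -0.044) in vein-like ECs and 0.22 (-0.37 to 0.82) in LEC-like ECs.

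By the 1.5-fold limit, 0 of 6 members measured in aCap-like ECs were higher and 0 lower, beside 6.52% and 8.13% of 11116 genes. In artery-like ECs 0 of 4 were higher and 2 lower (*Mxd4* and *Mxi1*), beside 9.05% and 8.14% of 7184 genes. In vein-like ECs 0 of 6 were higher and 3 lower (*Mxd1*, *Mxd4* and *Mxi1*), beside 5.27% and 6.11% of 9349 genes. The interval of *Mxd1* there included 0 (40 and 25 UMIs, log2 ratio -0.73, -1.51 to 0.024). Only *Mxd4* and *Mga* were measured in LEC-like ECs, with 0 higher and 0 lower, beside 8.7% and 8.01% of 3932 genes.

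**Figure D2:**
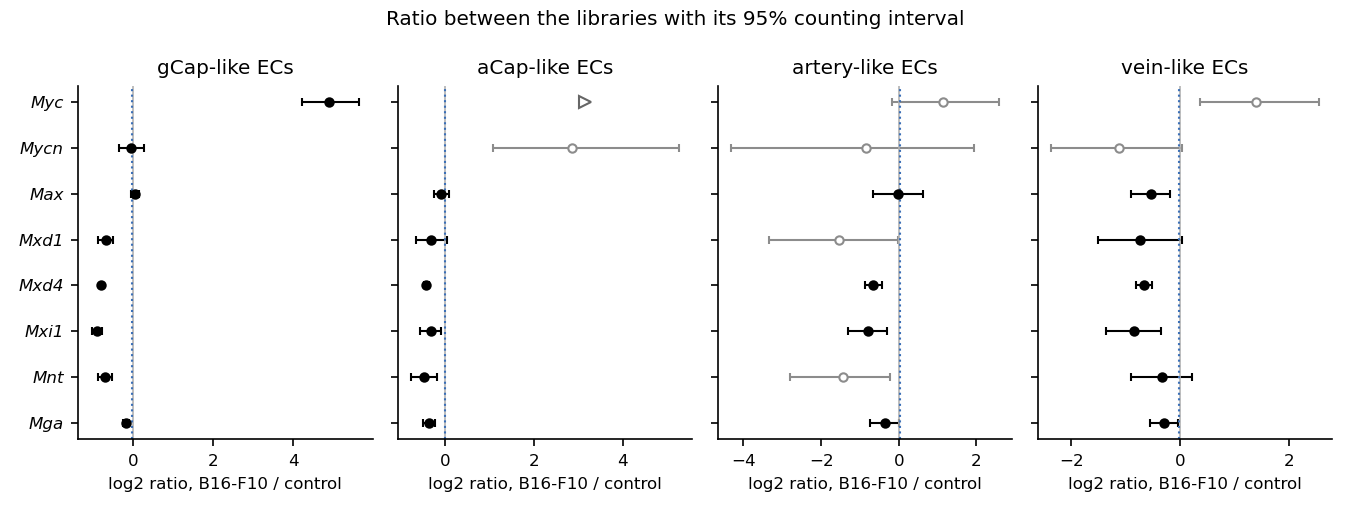
Log2 ratio of B16-F10 over control for 8 members in gCap-, aCap-, artery- and vein-like ECs, each panel with its own horizontal scale. Bars are 95% counting intervals, filled points rest on at least 50 UMIs, open points on fewer, and the open triangle is a lower bound; the dotted line is the median of all genes measured. The points of the 4 repressors *Mxd1*, *Mxd4*, *Mxi1* and *Mnt* lie left of 0 in all 4 panels, and *Myc* lies right of 0. The bars of *Mxd1* in aCap- and vein-like ECs, *Mnt* in vein-like ECs and *Myc* in artery-like ECs cross 0. In artery-like ECs *Mxd1* and *Mnt* are open points.

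Within gCap-like ECs the difference in *Myc* was uneven over clusters. Cluster 3, led by *Lalba*, *Tmem252*, *Adamts9* and *Pim3* among others, held 70 control and 1056 B16-F10 cells, and carried 522 of the 584 *Myc* UMIs of the B16-F10 class at 52.3 CPM. Its 70 control cells had 3 *Myc* UMIs (5.35 CPM). In the other 6 gCap-like clusters *Myc* lay between 0 and 1.54 CPM in control and between 0.901 and 9.86 CPM in B16-F10. Without cluster 3 the log2 ratio of *Myc* in gCap-like ECs was 2.30, that of *Mxd4* -0.62 and that of *Mxi1* -0.65, an alternative added after the values were seen.

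Cluster 15 held 8 control and 252 B16-F10 ECs that met no vessel class. It was led by *Fosl1*, *Csf2* and *Noct*, with *Myc* itself among its leading genes, and *Myc* was at 334 CPM there (922 UMIs) in B16-F10. Its 8 control cells had 5 *Myc* UMIs (62.4 CPM). In the same cells *Max* was at 93.0 CPM, *Mycn* at 13.0 CPM, *Mnt* at 19.5 CPM and *Mga* at 109 CPM, while *Mxd4* was at 45.2 CPM (125 UMIs), *Mxi1* at 3.98 CPM and *Mxd1* at 4.34 CPM. Compared with the B16-F10 gCap-like sum, *Myc*, *Max*, *Mycn*, *Mnt* and *Mga* were thus above and the 3 MXD genes below. These are levels within 1 library and clusters were built from cells of both, so no difference between clusters was tested.

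*Mxd4* was lower in B16-F10 also in clusters with little *Myc*. In cluster 0 (*Hey1*, *Lpl*; 1615 and 1024 cells) it was at 601 CPM in control and 325 CPM in B16-F10, with *Myc* at 0.333 and 1.51 CPM. In cluster 1 (*Vegfc*, *Aplnr*; 1050 and 1251 cells) it was at 410 and 294 CPM, and in cluster 6 (*Ntrk2*, *Sema3c*; 514 and 256 cells) at 484 and 285 CPM. It was not lower in every cluster: cluster 2 had 260 and 245 CPM (log2 interval -0.21 to 0.035) and cluster 9 had 291 and 313 CPM (-0.083 to 0.29).

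The aCap-like class was split by library, and its ratios carry that split. Cluster 5 held 180 control and 811 B16-F10 cells, cluster 7 held 647 and 91, and cluster 8 held 627 and 65. *Mxd4* was at 449 and 483 CPM in cluster 5 (log2 interval 0.0030 to 0.21), at 826 and 467 CPM in cluster 7 (-0.96 to -0.68) and at 409 and 310 CPM in cluster 8 (-0.71 to -0.11). Of the 22 *Myc* UMIs in B16-F10 aCap-like ECs, 21 were in cluster 5. Of the 18 *Mycn* UMIs, 16 were in cluster 5, where control had 0 and the interval of the log2 ratio began at -0.27. Cluster 7 had 3 and 2 *Mycn* UMIs (-1.29 to 5.42), so within these clusters *Mycn* did not differ beyond counting error.

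**Figure D3:**
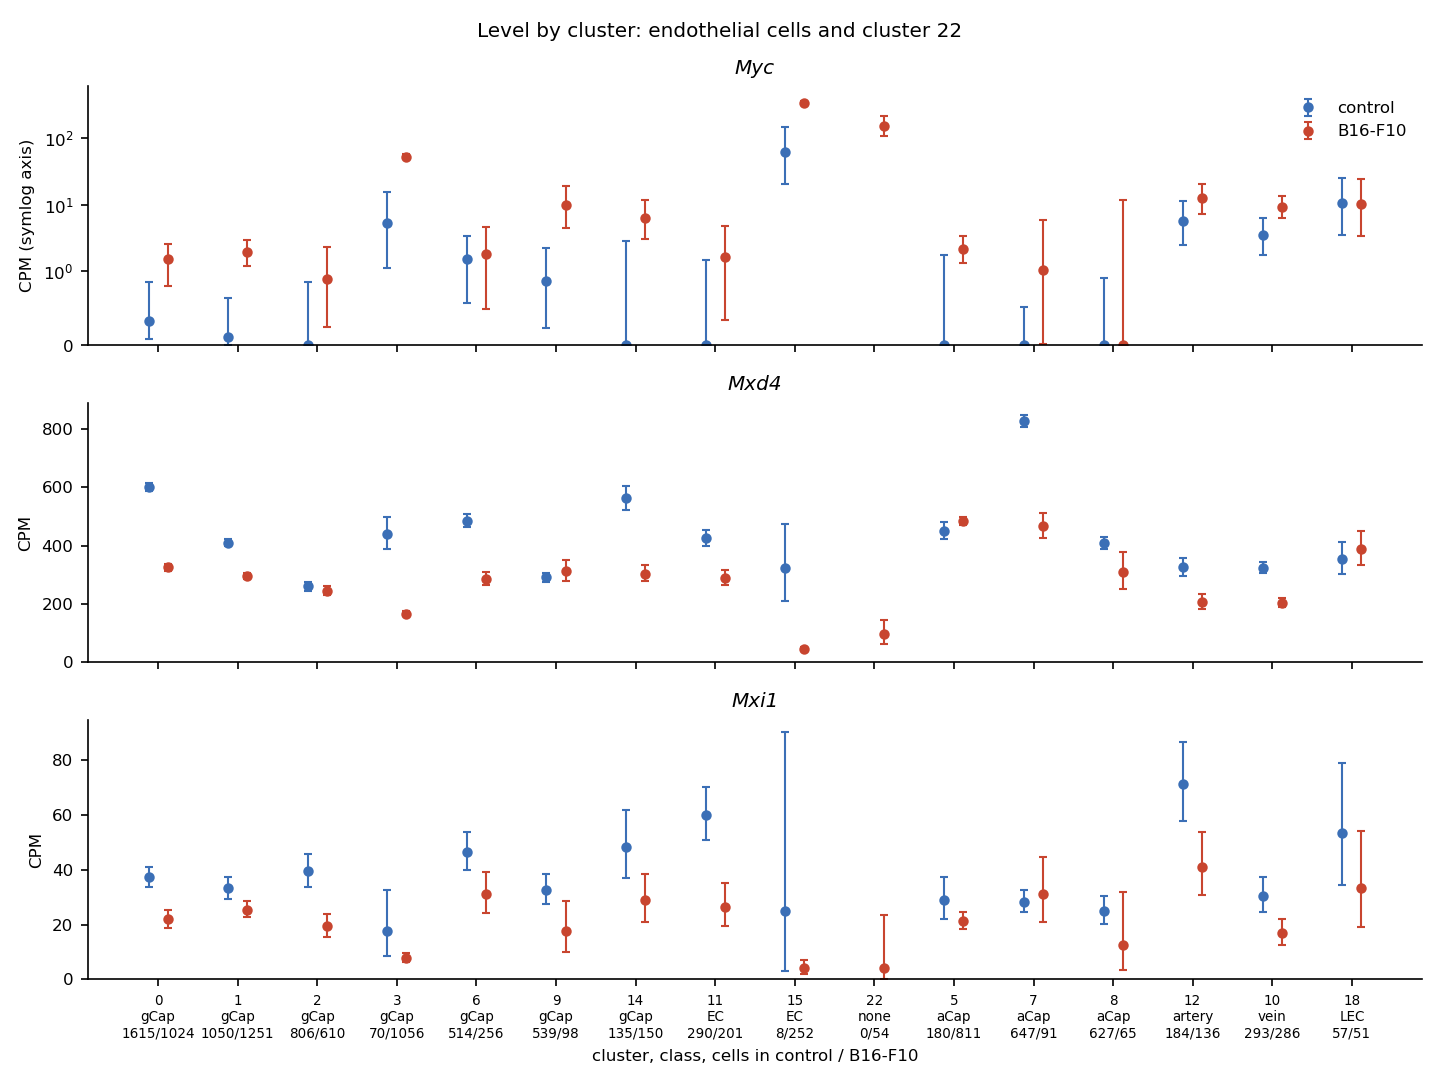
Level of *Myc* (symlog axis, linear below 1 CPM), *Mxd4* and *Mxi1* (linear axes, CPM) in each cluster of ECs and in cluster 22, for control (blue) and B16-F10 (red), with 95% Poisson intervals. Below each cluster stand its number, its class (EC where no vessel class was met, none for cluster 22) and its cells in control and B16-F10; *Myc* is highest and *Mxd4* lowest in clusters 15, 22 and 3 of B16-F10.

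To compare cells at equal depth, each cell was thinned to 2000 UMIs, which left out 61 control and 30 B16-F10 gCap-like cells. At that depth 4 of 4668 control gCap-like cells had a *Myc* UMI (0.0857%, exact Clopper-Pearson interval 0.0234 to 0.219%) and 118 of 4415 B16-F10 cells (2.67%, 2.22 to 3.19%). The difference was 2.59 percentage points (2.13 to 3.11), and 22 of the B16-F10 cells had 2 UMIs. Without cluster 3 the difference was 0.343 points. Without thinning, 0.296% and 6.73% of the cells had a *Myc* UMI. In aCap-like ECs of B16-F10, 0.104% of thinned cells had one. Median depths before thinning were 11352 UMIs there and 8493 UMIs in gCap-like ECs. From free RNA of near-empty barcodes, 0.0926% of B16-F10 gCap-like cells were expected to have a *Myc* UMI when scaled by epithelial secretory genes. Scaled by the melanoma pigment genes, 0.173% were expected. The part of free RNA in the difference was not tested.

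*Mxd4* was lower over the whole distribution of thinned gCap-like cells. Cells with no *Mxd4* UMI made up 46.6% in control and 61.7% in B16-F10, cells with 1 UMI 30.2% and 27.5%, cells with 2 UMIs 15.1% and 8.11%, and cells with 4 or more 2.68% and 0.453%. The share of cells with a UMI was 15.1 points lower in B16-F10 (-17.1 to -13.1).

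*Myc* was carried by the cells with most UMIs of the reactive capillary (rCap) genes, the study's markers of this response. The thinned gCap-like cells of both libraries were ordered by their summed UMIs of 49 rCap genes, *Myc* left out, and split at 4 limits into bins of 0 to 20, 21 to 25, 26 to 32, 33 to 45 and 46 to 134 UMIs, which differ in cell number. In B16-F10, *Myc* was at 6.38 CPM in the lowest bin (3 UMIs in 235 cells), 1.30, 1.11 and 4.14 CPM in the next 3, and 36.8 CPM in the highest (30.6 to 43.9, 124 UMIs in 1683 cells). In the highest bin 6.24% of cells had a *Myc* UMI. Of the control cells 86 reached that bin, and 0 of them had a *Myc* UMI, with an interval up to 21.4 CPM.

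In the same bins *Mxd4* was lower in B16-F10 throughout. In the lowest bin it was at 442 CPM in control (421 to 464) and 319 CPM in B16-F10 (270 to 375), in the middle bin at 453 and 313 CPM, and in the highest at 372 CPM (287 to 475) and 201 CPM (186 to 216). *Mxi1* in B16-F10 was at 27.7 CPM in the lowest and 9.21 CPM in the highest bin. In control it was at 41.1 CPM in the lowest and 27.1 CPM in the last bin but 1, and the 86 cells of the highest bin had 0 UMIs. The rCap genes were chosen in part on these cells, and the bins are given as a description.

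**Figure D4:**
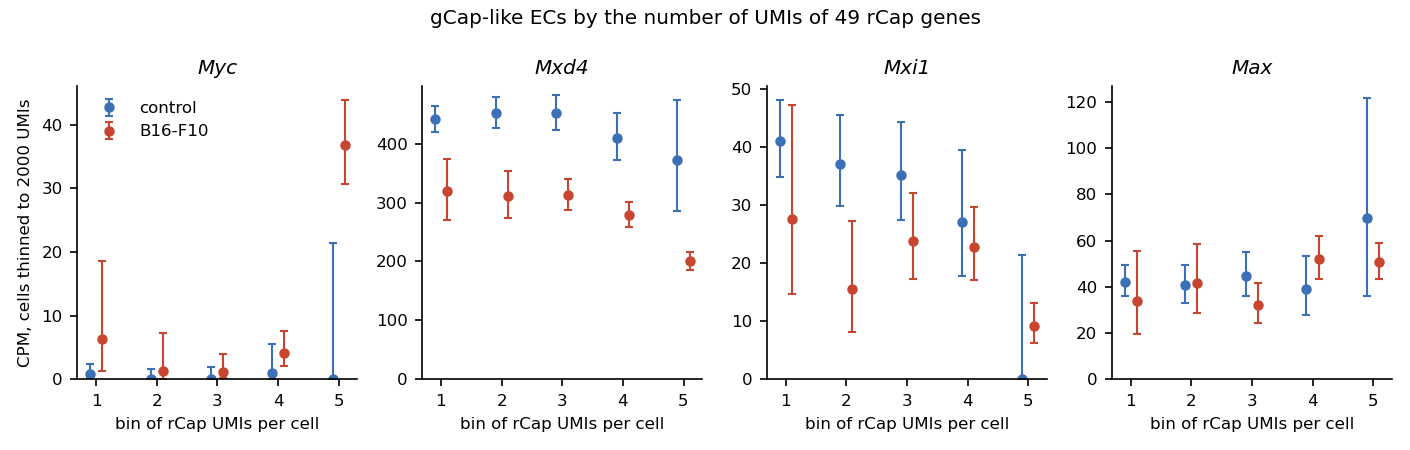
Level of *Myc*, *Mxd4*, *Mxi1* and *Max* (CPM, linear axes) in gCap-like ECs thinned to 2000 UMIs, by bin of the summed UMIs of 49 rCap genes, for control (blue) and B16-F10 (red), with 95% Poisson intervals. *Myc* is at 36.8 CPM in the highest B16-F10 bin and at most 6.38 CPM in the others, while *Mxd4* lies lower in B16-F10 than in control in each bin.

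Genes that MYC is known to induce were mostly higher in the B16-F10 library. All lists here and below were written by hand with earlier results of these data known. Their counts are a description and not independent support. Of 28 genes of ribosome biogenesis, all 28 were measured in gCap-like ECs and all 28 had a ratio above 0, beside 45.6% of all genes measured. For 27 of them the interval lay above 0, beside 28.6% of all genes, and 14 were at least 1.5-fold higher, beside 7.85%. Their median log2 ratio was 0.60, beside -0.039 over all genes. The genes with the highest ratios were *Rrp12*, a 40S maturation factor (1.30 and 5.78 CPM, 46 and 226 UMIs, log2 ratio 2.15), *Grwd1*, a ribosome assembly chaperone (2.94 and 10.6 CPM, log2 ratio 1.85), and *Gnl3*, nucleostemin (31.5 and 68.2 CPM, log2 ratio 1.11). *Pes1*, of the PeBoW complex, was at 0.25 (0.10 to 0.39), and *Dkc1*, the pseudouridine synthase dyskerin, at 0.064 (-0.049 to 0.18).

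Of 18 MYC-induced genes of metabolism and growth, 16 were measured, 15 had an interval above 0, beside 28.6% of all genes, and 9 were at least 1.5-fold higher, beside 7.85%. The median log2 ratio was 0.66. *Odc1*, the rate-limiting enzyme of polyamine synthesis, was at 21.7 CPM in control and 51.4 CPM in B16-F10 (log2 ratio 1.25, 1.13 to 1.37). *Srm*, spermidine synthase, was at 7.33 CPM in control (259 and 626 UMIs, log2 ratio 1.13), and *Nme1*, a nucleoside diphosphate kinase, at 39.1 and 76.9 CPM (log2 ratio 0.98). *Eif4e*, the cap-binding initiation factor, was at 0.18 (0.096 to 0.26), and *Tfb2m*, a mitochondrial transcription factor, at -0.051 (-0.19 to 0.090). Without cluster 3 the medians were 0.31 for ribosome biogenesis and 0.45 for metabolism and growth. The E-box stood in the promoter windows of 5 of 23 ribosome biogenesis genes with a window, *Grwd1* and *Pes1* among them, and in 8 of 16 of the metabolism and growth genes, among them *Nme1*, *Ldha*, *Cdk4* and *Eif4e*, beside 8.09% of all genes with a window.

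The 6 MYC-repressed genes were split. *Ndrg1*, a differentiation- and stress-induced gene, was at 9.48 and 34.0 CPM (log2 ratio 1.84), *Cdkn1a*, which encodes the p21 inhibitor of cyclin-dependent kinases, at 223 and 422 CPM (0.92), and *Cdkn2b*, which encodes p15, at 4.61 and 8.16 CPM (0.82). *Cdkn1b*, which encodes p27, was lower, at 119 and 61.3 CPM (-0.95, -1.02 to -0.88), and so was *Gas1*, a growth arrest gene, on 34 and 19 UMIs (-0.98). The list median of 0.48 covers 3 genes at least 1.5-fold higher and 2 at least 1.5-fold lower, beside 7.85% and 9.34% of all genes measured. That median was 0.27 without cluster 3.

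Most cofactors of the network lay within 1.5-fold, as most genes measured did. None of the 5 measured genes of the extended MAX/MLX network, the 7 corepressors of MXD and MNT, the 8 MYC coactivators or the 7 partners of MGA was 1.5-fold higher or lower, beside 7.85% and 9.34% of all genes measured. Their median log2 ratios were -0.063, 0.0074, 0.18 and -0.074. *Sin3b*, a scaffold of MXD repression, was at 0.34 (48.4 and 61.3 CPM) and its paralog *Sin3a* at -0.14, with *Hdac1* at 0.099 and *Ncor1* at -0.14. Among the coactivators *Wdr5* was at 0.34, *Kat2a* at 0.31, *Ruvbl1* at 0.25, *Ep400* at 0.0081 and *Trrap* at -0.25. Among the partners of MGA, *Pcgf6* was at 0.40, *Tfdp1* at 0.37, *Ring1* at 0.30, *L3mbtl2* at -0.22 and *Cbx3* at -0.31.
In the extended network *Zbtb17*, which encodes the MYC partner MIZ1, was at 0.26, *Mlxip* at 0.13, *Mycbp2* at -0.063, *Mlx* at -0.14 and *Mycbp* at -0.20. Of 8 genes of MYC protein turnover, 1 was 1.5-fold lower, beside 9.34% of all genes measured. It was *Skp2*, an F-box protein of a MYC ubiquitin ligase, at 5.97 and 3.63 CPM (-0.72, -1.03 to -0.40). *Usp36*, a nucleolar deubiquitinase, was at 0.41, *Stub1* at 0.39 and *Gsk3b* at -0.28.

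**Figure D5:**
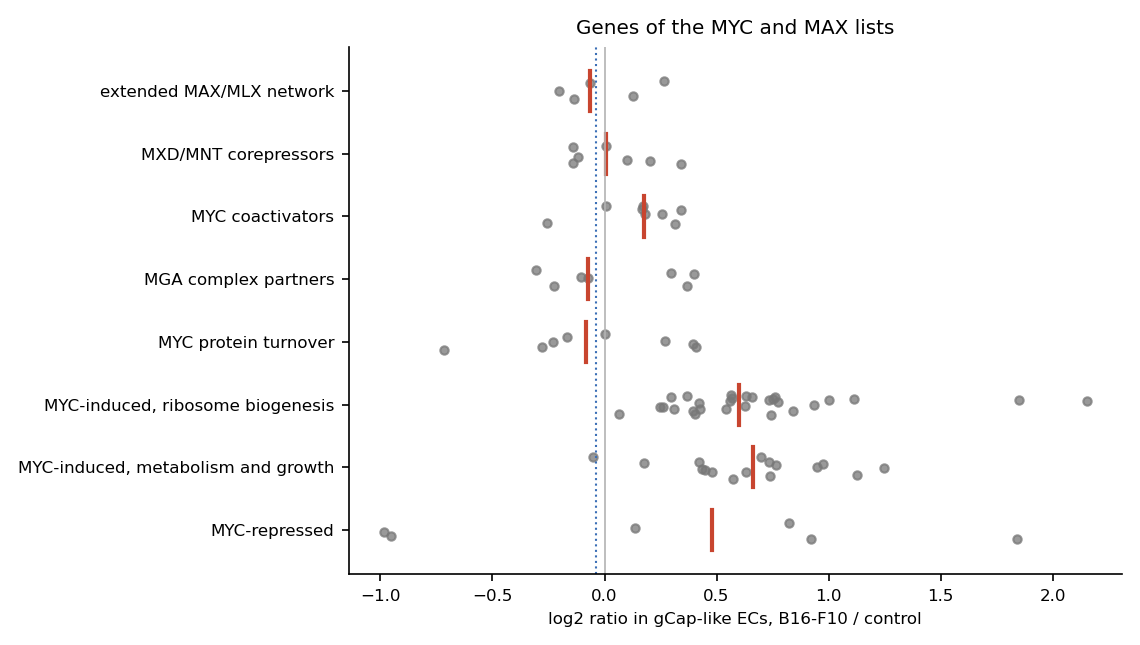
Log2 ratio of B16-F10 over control in gCap-like ECs for each measured gene (grey points, spread vertically at random) of 8 lists around MYC and MAX; the red bar is the median of a list and the dotted line the median of all genes measured. All 28 ribosome biogenesis genes lie right of 0, and the MYC-repressed genes lie on both sides.

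The medians of the induced lists were above that of all genes in aCap-, artery- and vein-like ECs too. In aCap-like ECs, where *Myc* was at 2.02 CPM, the median of the ribosome biogenesis list was 0.45 and that of the metabolism and growth list 0.46, beside 0.0057 over all genes. Of their measured genes 26 of 28 and 16 of 16 had a ratio above 0, beside 50.6% of all genes, and 23 and 13 an interval above 0, beside 27.8%. In artery-like ECs the medians were 0.51 and 0.39, beside 0.022, with 17 of 18 and 10 of 12 above 0, beside 52.4%, and 10 and 6 with an interval above 0, beside 15.2%. In vein-like ECs both medians were 0.32, beside -0.026, with 19 of 25 and 14 of 15 above 0, beside 46.6%, and 8 and 6 with an interval above 0, beside 12.5%. In LEC-like ECs, where few of these genes were measured, the medians were -0.18 and 0.057, with 1 of 6 and 5 of 8 above 0, beside 48.9%, and 0 and 1 with an interval above 0, beside 9.89%.

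Within the B16-F10 library, gCap-like cells with *Myc* UMIs had more UMIs of the induced lists. Among thinned cells, those with 0, 1 and 2 or more *Myc* UMIs (4297, 96 and 22 cells) had 3.08, 6.42 and 8.23 UMIs of the ribosome biogenesis list per cell, and 2.61, 4.72 and 6.18 UMIs of the metabolism and growth list. Control cells without *Myc* had 2.25 and 1.76. The MYC-repressed list ran the same way, with 1.05, 1.57 and 1.77 UMIs per cell in B16-F10 and 0.711 in control cells without *Myc*. B16-F10 cells without a detected *Myc* UMI were above control cells in all 3 lists. *Mxd4* ran the other way, with 0.531, 0.240 and 0.0909 UMIs per cell in B16-F10 and 0.884 in control cells without *Myc*. The MXD and MNT corepressors stayed near 1.26 UMIs per cell in control and 1.23, 1.27 and 1.45 in B16-F10. Of the 118 B16-F10 cells with a *Myc* UMI, 105 lay in the highest bin of rCap UMIs, so the groups also differ in that state. The part of that state was not tested. Cells of 1 library are not replicates, and these counts carry no test.

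The genes whose level ran most like that of *Myc* over the 10 sums of 5 vessel classes and 2 libraries were *Tmem173* (Pearson r of log2 CPM plus 1, 0.95), *Fosl2* (0.94), *Vps28* (0.92), *Dhx58* (0.91) and *Synpo* (0.91), among 11026 genes. *Tmem173*, which encodes the STING sensor adaptor, was at 2.04 and 26.2 CPM in gCap-like ECs, and *Fosl2*, an AP-1 subunit, at 9.82 and 25.7 CPM. For *Mxd4* they were *Ccnh* (0.97), *Arid4a* (0.95), *Kif1b* (0.94), *Edem3* (0.93) and *Serinc3* (0.93). The 10 points share 2 libraries and count equally. *Myc* rested on 0 to 30 UMIs in 9 of them, so its correlations rest largely on low counts.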

How the data were processed

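Single-cell libraries of sorted lung cells were analysed from the deposited matrices, which hold raw counts of UMIs per gene and barcode that the authors made with Cell Ranger 7.2.0 on mm10, per the file headers and the submitters' processing notes; these also list Seurat 4.4.0. The paper names an earlier Cell Ranger version, and the files hold more barcodes than the kit version in the labels provides. Whether intronic reads were counted is not given in the sources used here. Totals were 85794655 UMIs in control and 104978816 in B16-F10. The labels give 2 mice per treatment, and the paper 3 pooled mice. The labels name a 3′ kit, whose reads come from transcript ends.

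The study's limits on genes (1000 to 5000) and mitochondrial share (20%) were applied to each cell, and called doublets were removed (6.72% and 6.66%). Cells were clustered with scanpy 1.11.5 and leidenalg 0.10.2 (3000 variable genes less the members, the lists and the study's response genes, 30 components, resolution 0.8). Vessel classes were named from fixed markers with a rule whose thresholds were set after a first clustering was seen. Sums of UMIs over the cells of a class were given as CPM with exact Poisson intervals. Ratios have exact conditional binomial intervals and no pseudocount; a sum of 0 was set to 3 counts. A gene counts as measured from 50 UMIs in both libraries together, and 1.5-fold is the limit for higher and lower. Share differences have Newcombe intervals. Ratios and intervals were tested on simulated data.

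The members and lists were chosen with earlier results of these data known. Named genes are all 9 members and, from each list, the 3 highest and 2 lowest ratios, a few of which are not reported here; other list genes named with an E-box were named after their values were seen. With 1 library per group no test was run.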

Additional observations from a re-analysis of the deposited data

Results flagged for a closer look

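*Myc* was higher in the B16-F10 library in barcodes outside the cells compared in the report, of which those with over 5000 genes enter only the alternative with no upper limit of genes. In near-empty barcodes with 1 to 100 UMIs it was at 2.29 CPM in control (13 UMIs) and 22.4 CPM in B16-F10 (77 UMIs), a log2 ratio of 3.29 (2.43 to 4.26). In barcodes with over 5000 genes it was at 2.49 CPM (21 UMIs) and 19.95 CPM (346 UMIs), a log2 ratio of 3.00 (2.37 to 3.71). The free RNA expected in gCap-like ECs was 0.0342 CPM of *Myc* in control, beside 0.509 CPM measured. In B16-F10 it was 0.463 CPM scaled by epithelial genes or 0.866 CPM scaled by pigment genes, beside 14.9 CPM measured. The part of free RNA in these levels was not tested. *Mxd4* was lower in the near-empty barcodes, at 392 CPM in control and 223 CPM in B16-F10, a log2 ratio of -0.81 (-0.93 to -0.69).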

How the results depend on the processing

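With 1 library per group no value has replicate error, and depth limits *Myc* in aCap-, artery-, vein- and LEC-like ECs, *Mycl* in every vessel class and all members in LEC-like ECs. No paired analysis was possible because the design has 1 library on each side, and no library could be left out. For the 16 results with a counting interval, 176 of 193 values under an alternative stayed within it, 17 lay outside and 0 turned a direction that the interval supports. No ratio of *Mycl* could be formed. List medians have no interval: ribosome biogenesis ranged from 0.31 to 0.81, metabolism and growth from 0.45 to 0.72 and MYC-repressed from 0.27 to 0.82. The cause of each shift was not tested. The alternative without cluster 3 was chosen after seeing the data: in gCap-like ECs it gave log2 ratios of 2.30 for *Myc*, -0.62 for *Mxd4* and -0.65 for *Mxi1*, 0.343 points for the share of cells with a *Myc* UMI, and list medians of 0.31 (ribosome biogenesis), 0.45 (metabolism and growth) and 0.27 (MYC-repressed). With all ECs summed, *Mxd4* was at -0.75, the share at 3.58 points and the list medians at 0.81, 0.71 and 0.28. Cells thinned to 2000 UMIs, which leaves fewer counts, gave 0.29 for *Mycn*, -0.42 for *Mxd1*, -1.07 for *Mxi1* and 0.57 for the metabolism and growth list in gCap-like ECs, and for *Mxd4* -0.27 in aCap-like, -0.93 in vein-like ECs and -0.21 in ECs of the LEC-like class; the signs for *Mycn* and for the LEC-like class then differ from the values given, whose intervals include 0. Ratios centred on all genes gave -0.75 for *Mxd4* and 0.70 for the metabolism and growth list, which was at 0.72 with a minimum of 10 UMIs. With no upper limit of genes *Mxd4* was at -0.83, and with at least 1500 genes *Myc* in aCap-like ECs was at 2.47. The interval of *Myc* in vein-like ECs included 0 under 3 of 11 alternatives, and that in artery-like ECs lay above 0 under 5 of 11. With doublets kept the share was 1.59 points and the ribosome biogenesis list 0.54. The share was 3.99 points with 4000 UMIs per cell and 6.43 points without thinning.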

Other observations

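Outside the vessel classes *Myc* was low in the melanoma cells themselves, with 3 UMIs in 77 cells (3.66 CPM), and *Max* was at 41.4 CPM (34 UMIs) and *Mxd4* at 42.7 CPM (35 UMIs) there. Macrophage/monocyte cells of B16-F10 had 3 *Myc* UMIs (5.37 CPM) and neutrophils 1. Mural cells, which wrap capillaries, had 1 *Myc* UMI in control (5.55 CPM, 19 cells) and 16 in B16-F10 (60.6 CPM, 26 cells), while *Mxd4* was at 388 CPM and 341 CPM. Cluster 22, with 0 control and 54 B16-F10 cells and a median of 3967 UMIs, met no class; it was led by *Sox9* and *Maff*, with *Csf2* and *Odc1* among its leading genes, and had *Myc* at 153 CPM (36 UMIs), *Mxd4* at 97.6 CPM (23 UMIs) and *Mxi1* at 4.24 CPM (1 UMI).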
